A study of Homo sapiens with 6 samples.

Results

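The 4 ID genes and 6 genes of the TGF-beta and BMP pathways were described in RNA-seq of human cells that carry the label A549, a line from a lung adenocarcinoma. The 10 members were ID1, ID2, ID3 and ID4, the inhibitory SMADs SMAD6 and SMAD7, the ligands TGFB1, TGFB2 and BMP4, and the receptor TGFBR2. They were found by gene symbol, and all 10 were listed in each of the 6 libraries, out of 17789 symbols listed in at least 1 library. The FOXD3 knockdown group held 3 libraries from cells transfected by a lipid reagent with a pool of small interfering RNAs against FOXD3, a forkhead transcription factor. The control group held 3 libraries of cells whose genotype is given as wild type, and the sources used here do not give what those wells received. The labels place the check of the knockdown 72 h after transfection and do not say at which time RNA was taken. The groups therefore compare cells given small interfering RNAs against FOXD3 with control cells of unstated treatment. Both carry a single line label, and the time is not given.

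Ligands of the TGF-beta and BMP families bind paired type I and type II receptors, which phosphorylate SMAD proteins that enter the nucleus and change transcription. SMAD2 and SMAD3 mainly carry TGF-beta and activin signals, and SMAD1, SMAD5 and SMAD9 mainly carry BMP signals, all with SMAD4 as the common partner. The inhibitory SMADs SMAD6 and SMAD7 are induced by the pathway and restrain it. ID proteins hold a helix-loop-helix domain without a DNA-binding region, so they pair with E proteins such as TCF3 and keep them off DNA, and ID genes are known as direct BMP targets.

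ID3 was higher and ID1 lower in FOXD3 knockdown libraries. In the library values as deposited, the summed level of the 4 ID genes was 85.7 ± 5.56 FPKM there against 85.5 ± 1.97 FPKM in control libraries (SD, n = 3 each). TGFB1, TGFB2 and SMAD7 were lower, BMP4, ID2 and ID4 were higher, and SMAD6 and TGFBR2 did not pass the test. FPKM divide a gene's fragments by its transcript length and by the library's mapped total, so levels are per length and can be set beside each other between genes. Each log2 change is the knockdown mean minus the control mean of log2(FPKM + 1), a scale that shrinks the change of low genes, and is given with limma's Benjamini-Hochberg adjusted p over all genes tested. Of the 10 members, 8 passed at an adjusted p under 0.05, 4 higher and 4 lower, where 63.5% of the 13340 genes tested passed, 25.6% higher and 37.9% lower. With 10 members, and calls in most genes tested, nothing is read from the members' count. FPKM of the groups did not overlap in 9 of the 10 members and in 69.1% of all genes tested. The median log2 change was 0.17 over the members and -0.09 over all genes tested. After median scaling 9 members were called, beside 63.3% of all genes, 31% higher and 32.3% lower. After quantile normalization, which moved the median change of all genes by 0.11, 9 members were called beside 61.6% of all genes, 32.3% higher and 29.3% lower. Higher calls were 40.4% of all calls as deposited and 52.4% after quantile normalization.

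The depth of the libraries was only roughly estimated, and the label of the line was not borne out by every marker. The FPKM of 1 fragment in intronless genes put depth at about 6720000 to 7420000 fragments in knockdown libraries. Control libraries came to 6570000 to 7200000 fragments, and both ranges are rough estimates. Only values inside a window set after they had been seen were used, so the estimate cannot show that depths were alike. Knockdown libraries listed 15651 to 15754 symbols and control libraries 16229 to 16288, with no overlap. FOXD3 was listed at 0.0749 FPKM in knockdown replicate 2 and not listed in knockdown replicates 1 and 3, against 0.152, 0.291 and 0.134 FPKM in control replicates 1, 2 and 3. These values stand for about 1.05 fragments in knockdown replicate 2 and 2.02 to 3.99 in control libraries, and p was 0.1 in a two-sided exact permutation test, which is as low as 3 against 3 can go. A549 is known to have lost CDKN2A and its neighbour MTAP, yet both were expressed. CDKN2A averaged 128 ± 1.55 FPKM in knockdown and 154 ± 0.814 FPKM in control libraries, and MTAP 12.2 ± 0.11 and 10.5 ± 1.27 FPKM (SD, n = 3 each). CDKN2B, of the same locus, averaged 8.41 ± 1.25 and 16.1 ± 1.1 FPKM and is also counted among the lower TGF-beta targets. VIM, abundant in A549, stood at only 1.17 ± 0.263 and 3.79 ± 0.401 FPKM. AKR1B10, an aldo-keto reductase known to be high in A549, averaged 752 ± 14.3 FPKM in knockdown and 391 ± 4.45 FPKM in control libraries. All 5 epithelial markers were expressed and summed to 7210 to 7280 FPKM in knockdown and 5050 to 6020 FPKM in control libraries. Of these, 3 were called higher and 1 lower, where 25.6% of all genes tested were higher and 37.9% lower. Of 8 alveolar markers 2 averaged at least 1 FPKM and SFTPB was at 0 in every library. The 7 leukocyte markers summed to 91.8 to 95.0 FPKM in knockdown and 165 to 184 FPKM in control libraries, nearly all from LCP1 and CD68, with the pan-leukocyte gene PTPRC at 0.194 ± 0.043 and 0.227 ± 0.0713 FPKM. The 7 fibroblast markers summed to 2.96 to 3.53 against 3.64 to 4.53 FPKM, with DCN and LUM at 0 in every library, and the 6 endothelial markers to 4.0 to 4.25 against 6.63 to 7.83 FPKM. Small nucleolar RNAs held 1.92%, 4.83% and 1.82% of the FPKM total in knockdown replicates 1, 2 and 3, against 0.975%, 1.53% and 1.04% in control replicates 1, 2 and 3, so every knockdown library was above every control library. The part of these differences in the results was not tested, and bulk RNA cannot tell fewer cells of a type from less RNA per cell.

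The ID genes are small genes at separate loci. On hg19, ID1 lies on chromosome 20 from 30193086 to 30194317, ID2 on chromosome 2 from 8822113 to 8824583, ID3 on chromosome 1 from 23884421 to 23886285 and ID4 on chromosome 6 from 19837617 to 19840915. The sequences just upstream of ID1 and ID3 are shown because these related genes changed in opposite directions. Each line holds the 250 bases before a gene's start in RefSeq (GRCh38.p14), read 5′ to 3′ on the gene's strand. ID1 spans chr20:31605039-31605288 on the plus strand, and ID3 spans chr1:23559502-23559751 on the minus strand. Capitals mark every match, on either strand, to 5 motifs: TATAAA (the TATA box), CCAAT (the CCAAT box), CAGAC (the SMAD box), GGCGCC (a palindrome in GC-rich sites of BMP-responsive SMADs) and GTAAACA (a forkhead core).
ID1: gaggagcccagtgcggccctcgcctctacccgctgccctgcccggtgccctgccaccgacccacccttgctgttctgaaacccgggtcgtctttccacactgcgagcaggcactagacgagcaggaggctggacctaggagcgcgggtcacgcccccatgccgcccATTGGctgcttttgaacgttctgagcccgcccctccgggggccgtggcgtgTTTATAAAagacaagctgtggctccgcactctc
ID3: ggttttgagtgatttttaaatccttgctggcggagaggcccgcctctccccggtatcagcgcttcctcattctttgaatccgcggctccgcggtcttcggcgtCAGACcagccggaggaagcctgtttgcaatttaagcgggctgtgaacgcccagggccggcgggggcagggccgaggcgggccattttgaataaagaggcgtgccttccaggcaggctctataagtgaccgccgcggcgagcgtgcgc
The ID1 window held CCAAT on the minus strand and TATAAA on each strand, the 2 matches overlapping, with no CAGAC. The ID3 window held 1 CAGAC match and neither TATAAA nor CCAAT as exact letters. Near matches were not counted, such as tataag in the ID3 window. GC content was 66% in the ID1 window and 62% in the ID3 window. Among 35116 RefSeq windows of this length, 10.7% held TATAAA, 32% CCAAT, 38% CAGAC, 16.4% GGCGCC and 2.98% GTAAACA. All 10 members matched RefSeq, with 15 windows between them, of which 1, a BMP4 start, held GGCGCC and 0 held GTAAACA. Besides ID1 and ID3, TATAAA was found for TGFB2, ID4 and SMAD7, and CCAAT for ID2, ID4 and TGFBR2. CAGAC was found for TGFB2, ID4, BMP4 and SMAD7, so genes that rose and genes that fell held it. These matches describe the letters of the windows only.

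ID1 was the most abundant ID gene of the control libraries and fell in the knockdown. Its level was 40.7, 42.6 and 37.9 FPKM in knockdown replicates 1, 2 and 3, against 65.5, 67.4 and 71.1 FPKM in control replicates 1, 2 and 3. The lowest control library was above the highest knockdown library by more than the spread within either group. ID1 averaged 40.4 ± 2.36 FPKM in knockdown and 68.0 ± 2.83 FPKM in control libraries (SD, n = 3 each), 1.68-fold lower. Its log2 change was -0.74 (SE 0.057; limma adjusted p = 1.66e-05). A deeper fall was seen in 11.7% of all genes tested.

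ID3 had the largest log2 change among the members at a pseudocount of 1, while ID2, a low gene, had the larger ratio of means, 3.99 against 2.61, and the larger change at a pseudocount of 0.1, 1.79 against 1.39. It stood at 41.7, 44.7 and 38.8 FPKM in the knockdown libraries, against 16.5, 17.8 and 13.6 FPKM in the control libraries. The groups were far apart, with every knockdown library above every control library. ID3 averaged 41.7 ± 2.93 and 16.0 ± 2.17 FPKM (SD, n = 3 each), 2.61-fold higher in knockdown, with a log2 change of 1.34 (SE 0.098; limma adjusted p = 1.26e-05). Only 0.637% of all genes tested had a larger rise, and the gene ranked 86 from the top of 13340.

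ID1 and ID3 therefore stood at nearly equal levels in the knockdown libraries and at unequal levels in the controls. The ratio of ID1 to ID3 FPKM was 0.977, 0.954 and 0.977 in knockdown replicates 1, 2 and 3, against 3.97, 3.78 and 5.23 in control replicates 1, 2 and 3. ID1 made up 47.2% ± 0.381 of the summed ID FPKM in knockdown and 79.5% ± 2.62 in control libraries, and ID3 48.7% ± 0.28 and 18.7% ± 2.56 (SD, n = 3 each). The ratio within a library does not depend on how libraries are scaled to each other by a common factor. The sum of the 4 genes ran from 80.1 to 91.2 FPKM in knockdown and from 83.2 to 87.0 FPKM in control libraries, so the ranges overlapped. Unlike the ratio, the sum depends on that scaling, and it was not computed after median scaling or quantile normalization. The authors' own deposited comparison gave higher knockdown levels than the library means, 44.5 FPKM for ID1 and 45.7 FPKM for ID3. Its control levels were 67.3 and 15.8 FPKM. The near-equal sums therefore describe the library values only. The shares and the sum are given as descriptions with no test.

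**Figure D1:**
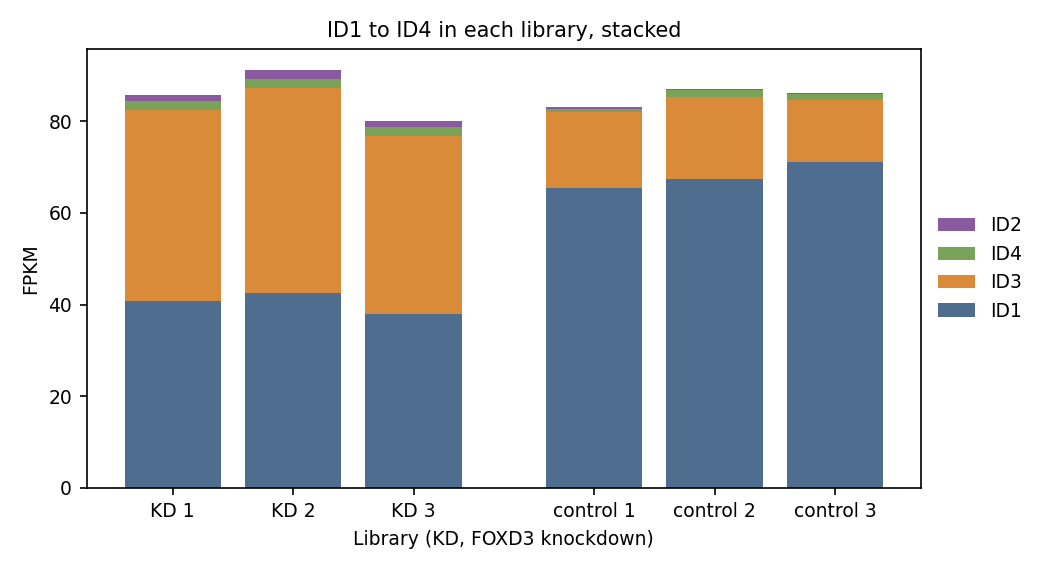
FPKM of ID1, ID3, ID4 and ID2 stacked for each library, with the 3 FOXD3 knockdown libraries at left and the 3 control libraries at right. The stacks are of like height, 80.1 to 91.2 FPKM in knockdown and 83.2 to 87.0 FPKM in control libraries, and the ID1 and ID3 segments are about equal in the knockdown libraries.

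ID2 and ID4 were low in all libraries and higher in the knockdown. ID2 stood at 1.37, 1.90 and 1.24 FPKM in the knockdown libraries, against 0.57, 0.229 and 0.331 FPKM in the control libraries. At the estimated depth this corresponds to about 18.8 to 26.0 fragments in knockdown libraries and 3.07 to 8.14 in control libraries, so the size of the change is poorly fixed. The groups did not overlap, and the log2 change was 0.86 (SE 0.15; limma adjusted p = 0.00106) with a pseudocount of 1 and 1.79 with a pseudocount of 0.1. ID4 stood at 2.06, 1.97 and 2.07 FPKM in the knockdown libraries, against 0.626, 1.55 and 1.18 FPKM in the control libraries. The control libraries were spread more widely, at 1.12 ± 0.464 FPKM against 2.04 ± 0.0546 FPKM in the knockdown (SD, n = 3 each), and did not reach the knockdown values. Its log2 change was 0.55 (SE 0.16; limma adjusted p = 0.0173), and it was 0.89 with a pseudocount of 0.1, 0.84 after quantile normalization and 0.37 without control replicate 1.

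The order of levels differed between the groups. In the knockdown libraries ID3 and ID1 shared the top, their ranges overlapping, with ID4 and then ID2 far lower and their ranges apart. In the control libraries the order was ID1, ID3, ID4 and ID2, and no neighbours overlapped.

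The inhibitory SMADs did not move together. SMAD7, which blocks receptors of both branches, measured 2.87, 3.58 and 4.02 FPKM in knockdown replicates 1, 2 and 3, against 7.14, 6.80 and 7.55 FPKM in control replicates 1, 2 and 3. Every knockdown library was well below every control library. The gene (chromosome 18, 46446223 to 46477081, hg19) averaged 3.49 ± 0.578 and 7.16 ± 0.376 FPKM (SD, n = 3 each), 2.05-fold lower in knockdown, and its log2 change was -0.87 (SE 0.11; limma adjusted p = 0.00018). SMAD6, which acts mainly on BMP signals, stood at 3.90, 3.58 and 3.08 FPKM in the knockdown libraries, against 2.75, 3.07 and 2.44 FPKM in the control libraries. The groups nearly touched, knockdown replicate 3 lying just above control replicate 2. The log2 change of SMAD6 (chromosome 15, 66994674 to 67074337, hg19) was 0.27 (SE 0.11; limma adjusted p = 0.0546), and its adjusted p was 0.0218 after median scaling, 0.00282 after quantile normalization, 0.0413 in limma without a trend, 0.0418 without control replicate 2 and 0.0373 without knockdown replicate 3, over a range of 0.00282 to 0.175 in 14 alternatives. The ratio of SMAD7 to SMAD6 was 0.736, 1.00 and 1.30 in the knockdown libraries, against 2.60, 2.21 and 3.09 in the control libraries.

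TGFB1 and TGFB2, ligands of the TGF-beta branch, were both lower. The level of TGFB1 (chromosome 19, 41836812 to 41859831, hg19) was 22.8, 23.9 and 23.6 FPKM in the knockdown libraries, against 33.6, 34.8 and 32.3 FPKM in the control libraries. The libraries of each group lay close together and the groups did not overlap. The mean was 1.43-fold lower in knockdown, and the log2 change was -0.50 (SE 0.051; limma adjusted p = 6.54e-05), a fall that 21.1% of all genes tested exceeded. The level of TGFB2 (chromosome 1, 218518676 to 218617961, hg19) was 11.4, 10.3 and 11.9 FPKM in the knockdown libraries, against 14.1, 15.6 and 17.3 FPKM in the control libraries. The groups did not overlap, and the log2 change was -0.45 (SE 0.087; limma adjusted p = 0.00218). The ratio of TGFB1 to TGFB2 was 1.98 to 2.33 in knockdown and 1.87 to 2.37 in control libraries, so the ranges overlapped.

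BMP4, a BMP ligand, was slightly higher. It stood at 12.5, 12.6 and 12.8 FPKM in the knockdown libraries, against 9.89, 10.9 and 9.70 FPKM in the control libraries. The knockdown libraries lay close together and above all controls, at 1.24-fold the control mean. The log2 change of BMP4 (chromosome 14, 54416455 to 54423554, hg19) was 0.29 (SE 0.065; limma adjusted p = 0.00465).

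TGFBR2, the type II receptor for TGF-beta (chromosome 3, 30647994 to 30735633, hg19), did not pass the test. It stood at 15.2, 14.6 and 16.8 FPKM in the knockdown libraries, against 13.6, 15.2 and 15.5 FPKM in the control libraries, and the groups overlapped. The log2 change was 0.07 (SE 0.075; limma adjusted p = 0.454), and its 95% interval ran from -0.10 to 0.24. It passed in 0 of 15 alternatives, with adjusted p from 0.0939 to 0.895.

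**Figure D2:**
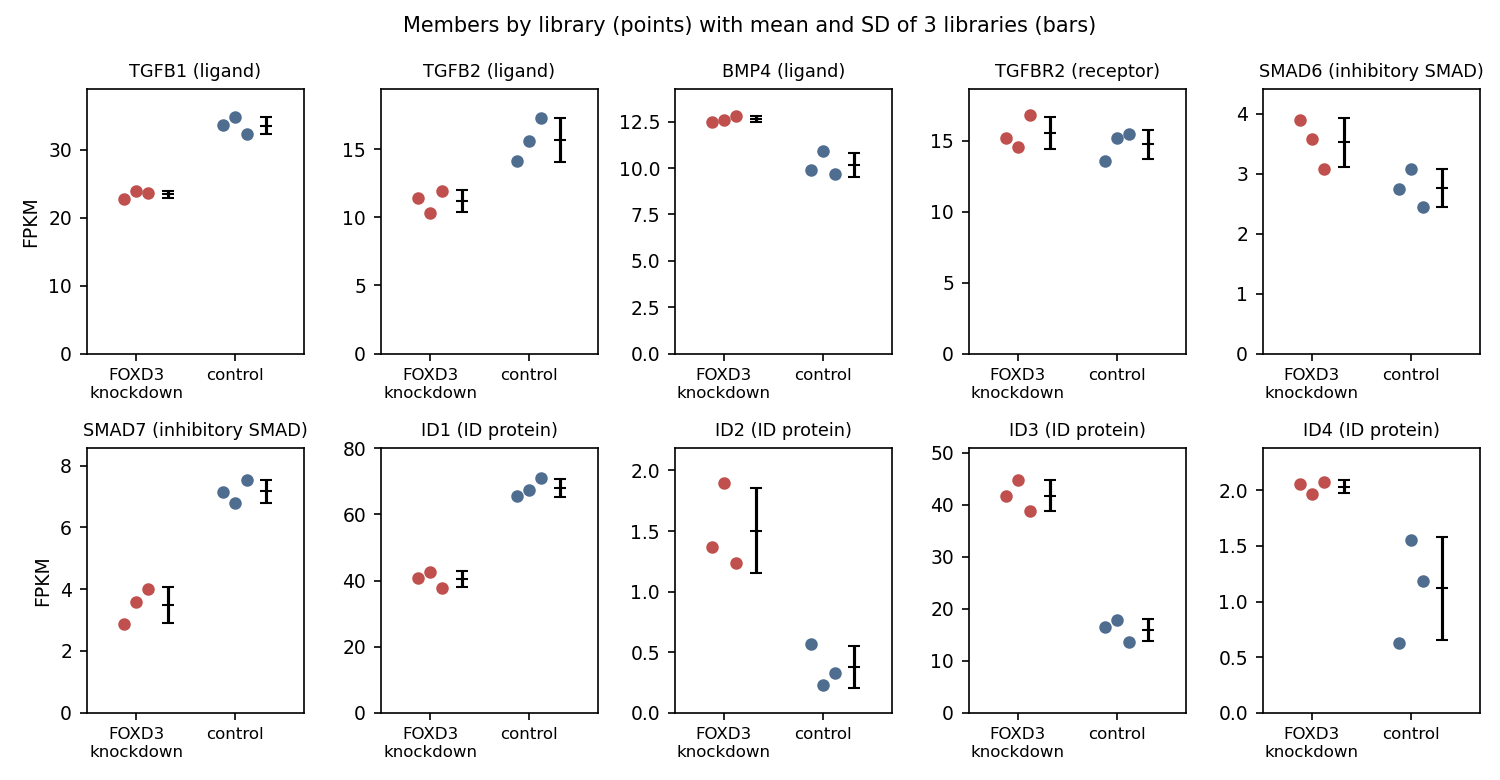
FPKM of each member in every library (points), with the mean and SD of 3 libraries beside them, FOXD3 knockdown left and control right, on axes that start at 0. The groups are apart in 9 of the 10 genes, narrowly for SMAD6, and overlap for TGFBR2. Among all genes tested they were apart in 69.1%.

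**Figure D3:**
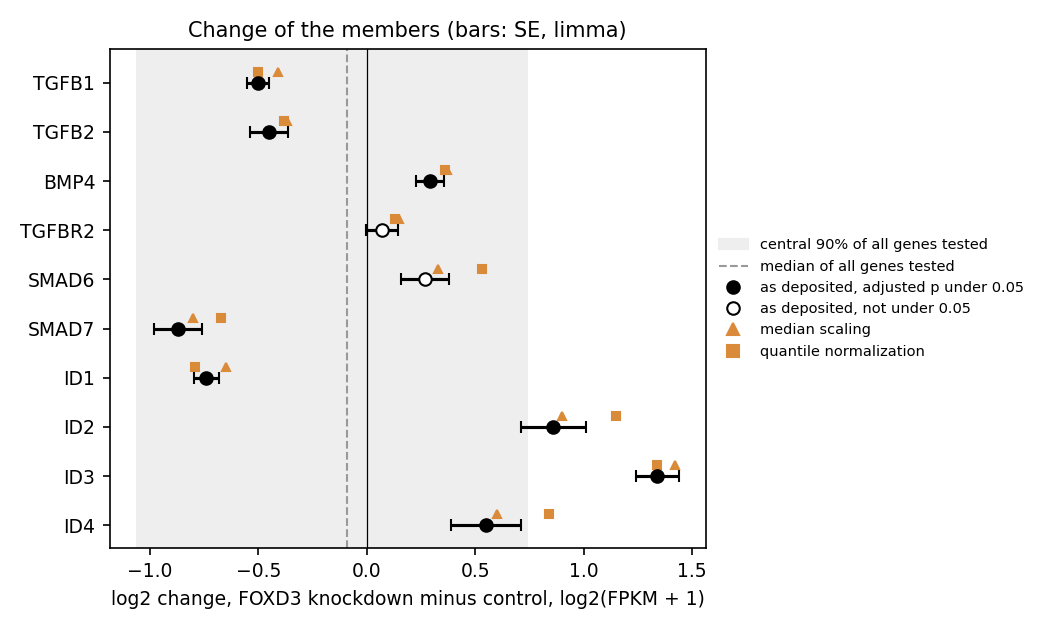
Log2 change of each member, FOXD3 knockdown minus control, with its SE. Filled points passed at an adjusted p under 0.05, and triangles and squares give the change after median scaling and quantile normalization. The grey band holds the central 90% of all genes tested, from -1.06 to 0.74, and ID2 and ID3 lie above it.

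The authors' deposited table of their own comparison gave the same directions for the 10 members. In the authors' deposited table, 3 members had a false discovery rate under 0.05, ID1, ID3 and SMAD7, where 22.1% of its 12275 genes did. The authors' deposited table gave a log2 fold change, knockdown over control, of 1.53 for ID3 with a false discovery rate of 0.000722, -0.60 for ID1 with 0.0473 and -0.88 for SMAD7 with 0.0272. Among the members the authors' deposited subset of called genes held ID3 alone. ID2 had a log2 fold change of 2.10 and a false discovery rate of 0.0544 in the authors' deposited table. The authors' deposited table placed ID4 over a wider interval, chromosome 6 from 19837601 to 19842431, than the tables of the libraries, and likewise TGFB2, chromosome 1 from 218517538 to 218617961.

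Other genes of the pathway were taken from 10 role lists of 153 genes in all, of which 91 reached the filter of a 0.5 FPKM mean. Of those 91, 16 were higher and 48 lower, 70.3% called against 63.5% of all genes tested, with a median log2 change of -0.27. Among all genes tested 25.6% were higher and 37.9% lower as deposited, and 31% and 32.3% after median scaling. Most ligand, latency and TGF-beta target genes that passed were lower, and the receptors and inhibitors were mixed. The lists include the members that belong to them.

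Among 14 tested ligands of 32 listed by role, 3 were higher and 8 lower, with a median log2 change of -0.40. After quantile normalization 4 were higher and 7 lower, beside 32.3% and 29.3% of all genes tested. GDF1 then lost its lower call, at a limma adjusted p of 0.07. GDF1 averaged 0.181 ± 0.2 FPKM in knockdown and 0.974 ± 0.421 FPKM in control libraries (SD, n = 3 each). INHBA, a chain of activin A, averaged 9.99 ± 0.62 FPKM in knockdown and 34.0 ± 2.39 FPKM in control libraries (SD, n = 3 each), 3.41-fold lower, with a log2 change of -1.67 (SE 0.071; limma adjusted p = 1.14e-06). GDF15, a distant family member made under stress, averaged 9.68 ± 2.58 and 39.4 ± 6.46 FPKM, 4.07-fold lower. INHBE, an activin chain known from liver, was lower at 0.271 ± 0.0909 against 2.47 ± 0.404 FPKM. BMP6, a BMP ligand, went the other way at 2.06 ± 0.35 against 0.887 ± 0.117 FPKM, a log2 change of 0.69 (SE 0.12; limma adjusted p = 0.00113). Proteins that store or release TGF-beta were lower in 8 of 11 and higher in 0, with a median of -0.45, where 37.9% of all genes tested were lower and 25.6% higher. Of these calls LTBP1 was lost after quantile normalization, at an adjusted p of 0.18, and ITGAV without control replicates 2 or 3 or knockdown replicate 2, at 0.0527 to 0.0639. LTBP2 and LTBP4, of the latent TGF-beta binding protein family, were 1.92-fold and 1.90-fold lower. ITGB6, a chain of the integrin that frees latent TGF-beta, was 1.75-fold lower. BMP1, a protease that cleaves procollagens and the BMP antagonist CHRD, was also lower, at a log2 change of -0.67.

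Of 12 tested receptors 3 were higher and 6 lower, with a median of -0.16. Among all genes tested 25.6% were higher and 37.9% lower, and 31% and 32.3% after median scaling. ACVR2A, a type II activin receptor, was higher at 2.36 ± 0.424 FPKM in knockdown against 1.15 ± 0.179 FPKM in control libraries. ACVR2B, its paralog, was lower at 2.36 ± 0.371 against 4.26 ± 0.201 FPKM. The type I receptors ACVRL1 and ACVR1 were lower too, at log2 changes of -0.88 and -0.62. After median scaling 3 receptors remained lower and 3 higher, because the calls of ENG, ACVR1B and BMPR2 were lost, at adjusted p of 0.0842, 0.172 and 0.0842. ENG was also lost without knockdown replicate 3, at 0.0586. ACVR1B was lost without control replicates 1 or 3 or knockdown replicates 2 or 3, at 0.0873 to 0.152, and BMPR2 without control replicates 2 or 3 or knockdown replicates 2 or 3, at 0.0879 to 0.118. After quantile normalization the adjusted p was 0.0755 for ENG, 0.243 for ACVR1B and 0.728 for BMPR2, and with no filter 0.0704 for ACVR1B and 0.0614 for BMPR2. BMPR1B, a type I BMP receptor counted as higher, was lost without knockdown replicate 1, at 0.0543. TGFBR1, the type I partner of TGFBR2, did not pass, at 11 ± 0.211 against 11.9 ± 0.694 FPKM.

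SMAD3, like SMAD2, is activated by TGF-beta. It stood at 18.2, 19.1 and 18.9 FPKM in the knockdown libraries, against 35.2, 39.1 and 40.5 FPKM in the control libraries. It was 2.04-fold lower in knockdown, with no overlap, and its log2 change was -0.99 (SE 0.063; limma adjusted p = 6.41e-06). SMAD1 and SMAD2 were lower by less, at log2 changes of -0.50 and -0.43, and SMAD5 did not pass at -0.12. SMAD4 was lower at -0.31 (limma adjusted p = 0.0166), and its call was lost after median scaling, at 0.0546, after quantile normalization, at 0.439, and without knockdown replicate 3, at 0.0617. Among 15 tested intracellular inhibitors 3 were higher and 7 lower, with a median of -0.14, beside 25.6% and 37.9% of all genes tested. Beside SMAD7, PMEPA1, an induced inhibitor that sequesters receptor SMADs, was 1.83-fold lower, and NEDD4L, a ubiquitin ligase of activated SMADs, had a log2 change of -0.58. BAMBI, a decoy receptor, was 1.51-fold higher. After median scaling 5 of the inhibitors were higher and 6 lower, beside 31% and 32.3% of all genes tested. The lower call of SMURF1, a ubiquitin ligase, was lost in 7 alternatives, at adjusted p of 0.0591 to 0.337. Of 7 tested extracellular antagonists 2 were higher and 2 lower. NOG, which binds BMPs, was 1.65-fold higher, NBL1, another BMP antagonist, 1.48-fold higher, and FSTL1, a follistatin-like protein, 2.12-fold lower.

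Target genes of the TGF-beta branch were lower in 12 of 19 and higher in 1, with a median log2 change of -0.69, where 37.9% of all genes tested were lower and 25.6% higher. After median scaling 10 were lower and 2 higher, beside 32.3% and 31% of all genes tested. The counts include SNAI2, whose call was lost in 8 alternatives, at adjusted p of 0.0513 to 0.651, and TPM1, lost after median scaling, at 0.138, and without knockdown replicate 3, at 0.0524. The SNAI2 losses included those without control replicates 1 or 3 and without knockdown replicates 1 or 3, at 0.0916 to 0.152. TAGLN, a smooth muscle actin-binding protein, was 3.6-fold lower, CDKN1A, the CDK inhibitor p21, 2.60-fold and FN1, fibronectin, 2.47-fold. The single target that was higher was PTHLH, the parathyroid hormone-related protein, at 6.15 ± 0.584 against 2.20 ± 0.527 FPKM (SD, n = 3 each). CDKN1A is also a known target of other pathways, so the list is not specific to TGF-beta. Of 10 tested BMP targets 5 were higher and 3 lower, with a median of 0.39. That list holds 6 of the members, and apart from these BAMBI and NOG were higher, RUNX2, a skeletal transcription factor, was lower and HEY1 did not pass. The RUNX2 call was lost after quantile normalization, at an adjusted p of 0.0598.

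Partners of the ID proteins were measured as well. TCF3, the E protein known as E2A, stood at 35.6, 35.6 and 35.1 FPKM in the knockdown libraries, against 25.4, 24.8 and 23.1 FPKM in the control libraries. It was 1.45-fold higher with no overlap, at a log2 change of 0.52 (SE 0.052; limma adjusted p = 6.35e-05). TCF12 had a log2 change of -0.27 (limma adjusted p = 0.0306), a call lost after median scaling, at 0.0871, after quantile normalization, at 0.101, with no filter, at 0.0542, and without control replicates 2 or 3 or knockdown replicates 1 or 2, at 0.0722 to 0.102. TCF4 did not pass, at 1.24 ± 0.174 against 1.37 ± 0.154 FPKM. Of 24 tissue-restricted helix-loop-helix factors, 2 passed the filter, BHLHA15 and TWIST2, and 0 were called.

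**Figure D4:**
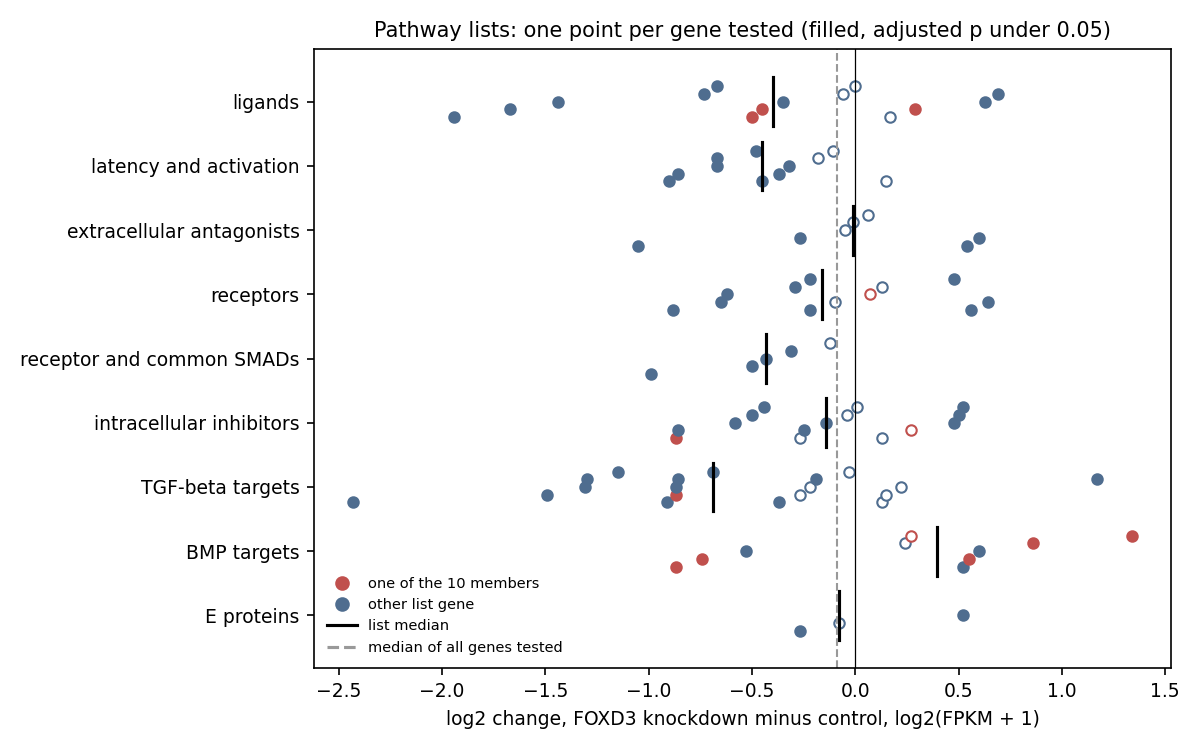
Log2 change, FOXD3 knockdown minus control, of each tested gene of 9 role lists, with the list median as a bar and the median of all genes tested, -0.09, as a dashed line. Members are in red, and filled points passed at an adjusted p under 0.05. TGF-beta targets lie mostly at the lower side, with a median of -0.69, and BMP targets at the higher side, with a median of 0.39.

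The genes whose pattern over the 6 libraries was most like each member's were ranked by Pearson's r on log2(FPKM + 1), among up to 9170 tested genes whose mean reached 5 FPKM. For ID1 these were VHL, ETNK2 and CSNK2A2, with r of 0.9997, 0.9995 and 0.9986. For ID3 they were SGTA, YY1 and MRPL49, with r of 0.9995, 0.9995 and 0.9991. For SMAD7 they were RASA2, LOC344595 and SERGEF, with r of 0.9986, 0.9965 and 0.9963. For the other members the highest r was 0.9996 for ID2 (ATP6V0B), 0.9979 for ID4 (ABAT), 0.9990 for TGFB1 (LDB1), 0.9981 for TGFB2 (RNF14), 0.9976 for BMP4 (STRN4), 0.9796 for SMAD6 (RARS2) and 0.9723 for TGFBR2 (BRPF3). With 6 libraries in 2 groups, any gene that separates the groups well has a high r, so these values describe the likeness only.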

How the data were processed

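RNA-seq of 6 libraries was analysed, 3 FOXD3 knockdown and 3 control, grouped by the genotype in the labels. The labels number no replicates, so replicates 1 to 3 were numbered here in accession order as names only, and equal numbers pair nothing. Per the labels' protocols, a TruSeq kit was used for library preparation. The submitters' processing notes list TopHat2 2.0.12, Bowtie, Cufflinks 2.0.2, Cuffdiff and hg19, without their roles. The strand setting and the annotation were not stated in those sources. The authors deposited FPKM values per library, per the file headers, and a comparison table holding 1 FPKM per group, its log2 fold change, and each gene's p-value and false discovery rate. That comparison table entered no test here. The library tables list no gene at 0, so an unlisted symbol was set to 0, which can be a failed estimate; rows of a symbol were summed.

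Genes averaging 0.5 FPKM or more were tested on log2(FPKM + 1) in limma 3.58.1 under R 4.3.3, two-sided, using eBayes with an intensity trend and no covariate. Calls have a Benjamini-Hochberg p under 0.05. The procedure was tested on simulated data. The simulation changed few genes and held no scaling difference between groups, so it does not cover calls in most genes, as here. The labels do not say that replicates were separate cultures, and the p-values then reflect only how these libraries vary, which may be technical.

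Depth is not stated. It was estimated from single-exon genes of at least 1500 bp (GENCODE 29), as the median of values implying 5000000 to 10000000 fragments. That window was set after values had been seen, and no effective-length correction was made. Fragments behind a member use its longest coding transcript. Coordinates are the authors' on hg19, written 1-based. Genes with close paralogs, and overlapping genes, may share reads.

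The members and lists were chosen with earlier results of these data known. Named genes are the members, FOXD3, up to 4 called genes of largest change per list with at least 1 FPKM in the higher group, and the 3 genes most like each member; not all are printed, and a withheld item is not reported here. Genes named besides these, after their values were seen, are TGFBR1, SMAD5, TCF4, HEY1, RUNX2, NOG as a BMP target, PTHLH, BHLHA15, SNAI2, TPM1, LTBP1, ITGAV, SMURF1, BMPR1B, TWIST2, ENG, ACVR1B, BMPR2, GDF1 and the marker genes. Alternatives covered the pseudocount, filter, scaling, variance model, symbol rows and each library left out.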

Additional observations from a re-analysis of the deposited data

How the results depend on the processing

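All 10 members kept their direction in every alternative that tested them, and the 8 called members kept their call, in 14 or 15 alternatives each. SMAD6 was not called as deposited and was called after median scaling, at a log2 change of 0.33, after quantile normalization, at 0.53, and in limma without a trend, at 0.27. With 1 library left out, its log2 change ran from 0.21 to 0.34. The number of members called was 6 to 9 over the alternatives, 6 being with a filter of 5 FPKM, which removed 3 members. Calls over all genes ran from 6262 to 8679, and calls over the role lists from 46 to 67. Of the 64 role-list calls, 51 were kept in every alternative that tested them and 13 were lost in at least 1. The number of ligands, receptors and BMP targets called was 7, 2 and 5 with the filter of 5 FPKM, which tests fewer genes. Without 1 library, the FOXD3 difference ran from -0.196 to -0.118 FPKM. No paired analysis was possible because the labels give no pairing and no replicate numbers, those used here being names given in accession order. Depth limits ID2, ID4 and FOXD3.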
